A study of Mus musculus with 6 samples.

Results

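The nuclear genes of the mitochondrial respiratory chain and of ATP synthase were followed in mouse intestinal tumour cultures with and without an intact Chuk gene. They were taken by symbol, but earlier results of these data were known when this family was chosen. The rule took protein-coding genes of the mouse annotation whose names begin with Nduf, Uqcr or Atp5. It also took Cyc1, Sdha to Sdhd and names that begin with Cox followed by a digit from 4 to 8. This gave 94 of the 49585 genes in the tables, of which 36 belong to complex I, 4 to complex II, 9 to complex III, 20 to complex IV and 17 to complex V, and 8 are the complex I assembly factors Ndufaf1 to Ndufaf8. RNA was sequenced from tumoroids, intestinal adenoma cells of the strain C57BL/6 kept in Matrigel drops, in a medium with N2, B27, ROCK inhibitor, Noggin, R-spondin, EGF and basic FGF. There were 3 libraries labelled knock-out (APC min/+; Villin-Cre; IKKa FL/FL) and 3 labelled wild type (APC min/+; Villin-Cre; IKKa +/+). Both groups therefore carried the Min allele of Apc, which predisposes to intestinal adenomas, and Cre under the Villin promoter, which is active in intestinal epithelium; the groups differ in whether the alleles of Chuk, the gene of the kinase IKKa, were floxed. The labels speak of biological replicates but do not say whether they came from separate mice or cultures, and give neither age nor sex, so p-values measure the spread between these libraries.

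The respiratory chain moves electrons from NADH (complex I) and succinate (complex II) through ubiquinone to complex III, and from there by cytochrome c to complex IV, which reduces oxygen. Complexes I, III and IV pump protons across the inner mitochondrial membrane, and complex V, the ATP synthase, uses the return flow to make ATP. Most subunits are encoded in the nucleus, a smaller set in mitochondrial DNA, and complex II is wholly nuclear; assembly factors help to build the complexes but are not part of the finished enzyme. In the intestine, oxidative metabolism is a known feature of crypt and villus cells, and its genes are known to answer to coactivators of the PGC-1 family and to transcription factors such as NRF1, GABP and the oestrogen-related receptors.

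The libraries held 20749747 to 31875723 counts. Chuk itself had 28.9, 24.4 and 34.9 CPM (counts scaled to library size with TMM factors) in knock-out replicates 1, 2 and 3. The wild-type replicates had 101, 106 and 95.7 CPM, so the knock-out level was 3.42-fold lower with no overlap. Some Chuk transcript thus remained in the knock-out libraries, and counts per gene do not show which exons it held. Epithelial markers were present in all libraries, with a summed level over 8 genes of 10100 to 11842 CPM in the knock-out and 7675 to 8316 CPM in the wild type. Keratins made up most of this sum and were higher in the knock-out. Krt19 had 3967 against 1474 CPM (means, knock-out first, log2 fold change 1.43), and Krt8 and Krt18 had log2 fold changes of 0.43 and 0.40. Cdx1 was at 0 in the knock-out, Cdx2, Epcam and Vil1 were lower there, and Cdh1 did not pass. Markers of other cell types summed to at most 18.1 CPM per list in any library: fibroblast markers to 0.452 to 0.884 CPM against 0 to 0.339 CPM, leukocyte markers to 12.0 to 12.8 CPM against 1.81 to 6.97 CPM, endothelial markers to 0.299 to 0.442 CPM against 9.93 to 14.5 CPM and muscle markers to 0 to 0.316 CPM against 9.13 to 18.1 CPM (knock-out first). Single genes made up most of these sums: Tek had 11.9 CPM in the wild type (mean of 3 libraries) and 0.274 CPM in the knock-out, Acta2 12.5 and 0.117 CPM, and Cd68 3.71 and 11.9 CPM, while Itgam, also a leukocyte marker, was lower in the knock-out (0.620 and 0.0866 CPM). Dcn, Lum, Col3a1, Cd3e, Adgre1, Kdr and Myh6 were listed at 0 in all 6 libraries. The part of these genes in the results was not tested. Genotype also went with sex-linked transcripts: Xist had 1 to 3 counts in each knock-out library and 23082 to 44250 in each wild-type library, while Ddx3y, Eif2s3y and Kdm5d had 920 to 2639 counts in each knock-out library and 0 in the wild type. Sex and genotype cannot be told apart here, for any gene below. In bulk RNA, fewer cells of a type and less RNA per cell cannot be told apart either.

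Lower levels in the knock-out were found in every complex. Of the 94 genes, 88 had enough counts to be tested, and 74 of these were lower in the knock-out, 0 were higher and 14 passed in neither direction (edgeR quasi-likelihood test, adjusted p under 0.05). None was higher at an unadjusted p under 0.05 either, nor with DESeq2 or limma voom. The background was high: of all 13759 genes tested, 57.4% passed in either direction, 27% (3714 genes) as lower and 30.4% (4182 genes) as higher. The 74 lower genes are 84.1% of the respiratory chain genes tested, beside 27% of all genes. Among the 4984 tested genes with at least 50 CPM in the wild type, a level that most respiratory chain genes reach, 36.2% were lower. The median log2 fold change (knock-out minus wild type) was -0.66, a 1.58-fold lower level, while that of all genes tested was 0.00220. Single values ran from -1.85 (Atp5g1) to 0.10 (Ndufa7), and 84 of the 88 were negative. For 76 genes all 3 knock-out libraries lay below all 3 wild-type libraries, which was true of 30.4% of all genes tested; for none did they all lie above, which was true of 32.7% of all genes. Ndufb7 passed although its groups overlapped, and Ndufa11, Ndufaf1 and Ndufaf7 were apart but did not pass. The falls were moderate in size: 52 genes were lower by at least 1.5-fold and 11 by at least 2-fold, of which 10 passed the test.

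**Figure D1:**
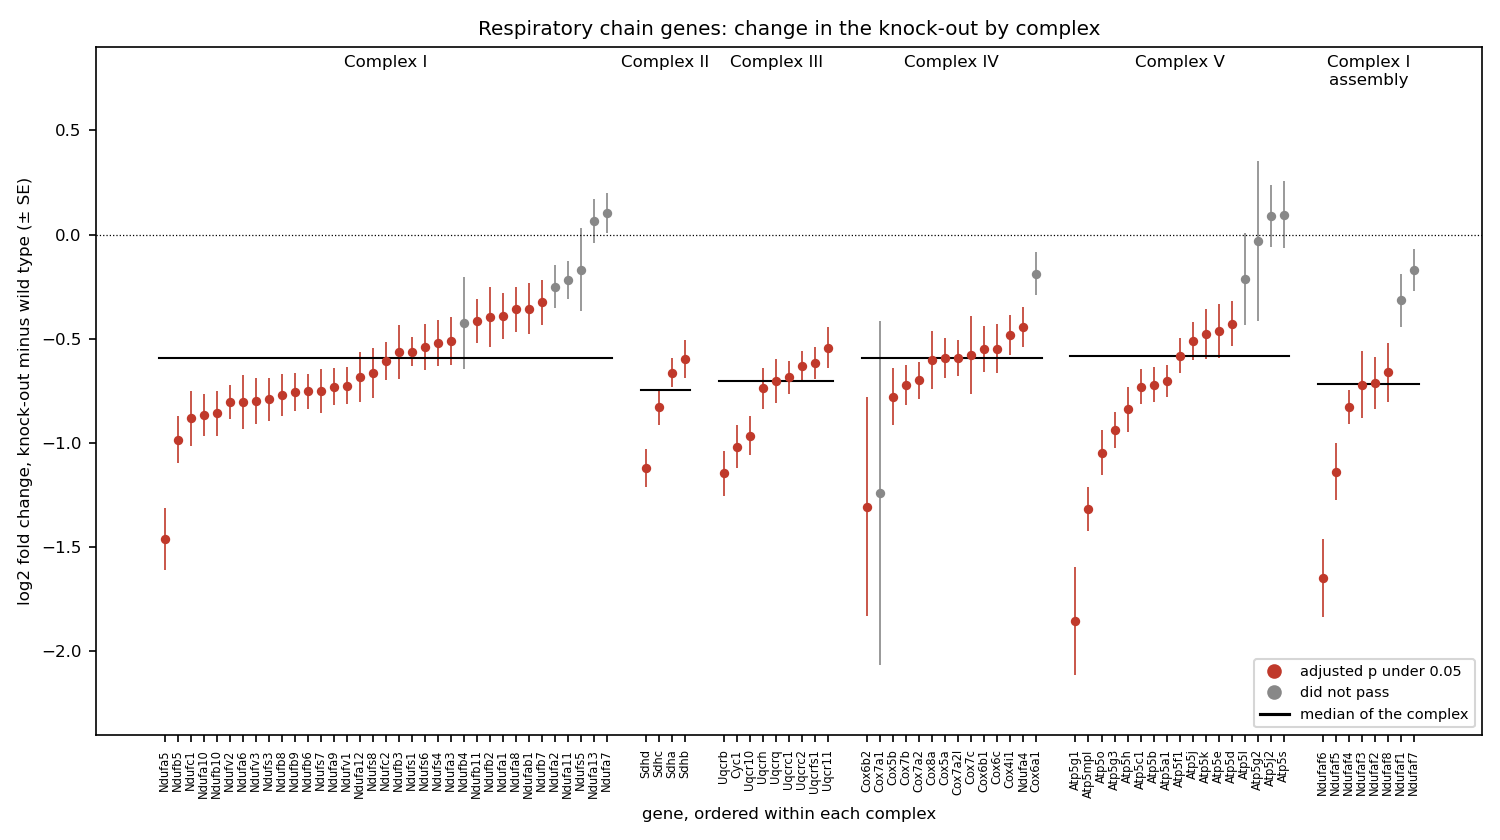
Log2 fold change of 87 of the 88 tested genes (knock-out minus wild type, point, with its standard error as a bar) by complex, ordered within each complex; the horizontal bars mark medians over all tested genes of the complex, from -0.58 in complex V to -0.75 in complex II. Nearly all points lie below 0, and the 14 grey ones did not pass the test.

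By complex, 30 of 36 tested genes of complex I were lower (median log2 fold change -0.59), 4 of 4 of complex II (-0.75), 9 of 9 of complex III (-0.70), 12 of 14 of complex IV (-0.59), 13 of 17 of complex V (-0.58) and 6 of 8 assembly factors (-0.72). The medians of the 6 groups lie closer together than the genes within any of them, and no test compared one complex with another. Of all genes tested, 27% were lower, and 36.2% of those with at least 50 CPM in the wild type. Complexes II and III were the groups in which every member passed.

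The promoters of the 5 genes with the smallest adjusted p among those in RefSeq's promoter table (GRCm38.p6) are shown because these members moved together and the letters of known regulators of such genes can be looked for in them. Each window runs from 250 bases before to 50 bases after the annotated start, 5′ to 3′ on the gene's strand. Capitals mark the letters GCGCANGCG (NRF1), CCGGAAG (ETS factors such as GABP) or AAGATGGCG (YY1), on either strand. The windows are Sdhd (chr9:50603800-50604099, minus strand), Atp5g3 (chr2:73911277-73911576, minus), Uqcr10 (chr11:4704295-4704594, minus), Ndufaf4 (chr4:24897833-24898132, plus) and Ndufv2 (chr17:66101510-66101809, minus).
Sdhd: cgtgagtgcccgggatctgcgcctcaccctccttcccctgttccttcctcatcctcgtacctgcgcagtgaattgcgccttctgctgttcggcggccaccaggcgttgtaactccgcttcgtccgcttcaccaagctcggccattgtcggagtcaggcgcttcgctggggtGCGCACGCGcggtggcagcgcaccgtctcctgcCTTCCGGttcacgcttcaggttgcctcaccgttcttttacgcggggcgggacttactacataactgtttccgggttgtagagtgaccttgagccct
Atp5g3: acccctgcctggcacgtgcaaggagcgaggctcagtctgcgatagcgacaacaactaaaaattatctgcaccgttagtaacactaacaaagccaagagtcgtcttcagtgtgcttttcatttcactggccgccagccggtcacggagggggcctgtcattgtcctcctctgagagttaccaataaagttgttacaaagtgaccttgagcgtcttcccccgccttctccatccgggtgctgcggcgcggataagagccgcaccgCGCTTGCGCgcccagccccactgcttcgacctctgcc
Uqcr10: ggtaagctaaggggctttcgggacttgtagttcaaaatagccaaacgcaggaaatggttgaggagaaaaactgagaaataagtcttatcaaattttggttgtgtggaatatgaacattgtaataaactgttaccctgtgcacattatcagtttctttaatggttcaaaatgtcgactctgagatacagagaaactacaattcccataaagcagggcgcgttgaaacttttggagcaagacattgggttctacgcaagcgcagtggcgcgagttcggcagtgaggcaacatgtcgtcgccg
Ndufaf4: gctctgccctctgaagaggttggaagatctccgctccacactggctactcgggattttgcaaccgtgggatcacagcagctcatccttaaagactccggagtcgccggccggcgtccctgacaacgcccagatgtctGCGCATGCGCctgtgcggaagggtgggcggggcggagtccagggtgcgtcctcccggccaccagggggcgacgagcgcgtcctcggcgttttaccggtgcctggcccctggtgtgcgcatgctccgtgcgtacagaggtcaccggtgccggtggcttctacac
Ndufv2: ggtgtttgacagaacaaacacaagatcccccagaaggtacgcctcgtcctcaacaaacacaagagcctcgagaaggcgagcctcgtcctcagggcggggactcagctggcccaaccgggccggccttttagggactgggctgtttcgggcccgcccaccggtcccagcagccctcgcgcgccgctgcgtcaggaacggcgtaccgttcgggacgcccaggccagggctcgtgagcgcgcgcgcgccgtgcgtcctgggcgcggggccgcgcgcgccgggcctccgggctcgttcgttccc
Counting the start as 0, Sdhd holds the NRF1 letters at -79 to -71 and the ETS letters on the other strand at -46 to -40, Atp5g3 the NRF1 letters on the other strand at 13 to 21, and Ndufaf4 the NRF1 letters on both strands in overlapping matches, at -113 to -105 and -112 to -104. Uqcr10 and Ndufv2 hold none of these letters in this window. Such a match is a description of letters and not a binding site.

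Over all members, 74 were in the promoter table. NRF1 letters were in 22 of them (29.7%), against 15.4% of 9745 tested protein-coding genes and 7.03% of the 27025 genes in the table. ETS letters were in 18 (24.3%, against 20.3% and 9.93%) and YY1 letters in 8 (10.8%, against 3.62% and 1.64%). At least 1 of these was in 39 members (52.7%, against 34.2% and 16.5%). Among the members that were lower and those that were not, the shares were as follows, and no test was made. NRF1 letters were in 16 of 60 members that were lower (26.7%) and in 6 of 12 that passed in neither direction (50%), and any of these letters were in 31 (51.7%) and 8 (66.7%). Members not in the table include Atp5a1, Atp5f1, Atp5mpl, Atp5s, Cox4i1, Cox4i2, Cox6a2, Cox6c, Cox8c, Cyc1, Ndufa2, Ndufa4l2, Ndufaf6, Ndufb9, Ndufs1, Sdhc, Uqcrb, Uqcrc2 and Uqcrq.

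In complex I, the 6 nuclear core subunits described here, most of which carry the flavin or iron-sulphur clusters, were lower in the knock-out. The 3 that form the NADH-oxidising tip led with Ndufv2, an iron-sulphur subunit, which had 96.7, 109 and 93.3 CPM in knock-out replicates 1, 2 and 3 and 168, 177 and 177 CPM in the wild-type replicates, the order kept below unless the sentence says otherwise. No knock-out library reached the lowest wild-type library, and the log2 fold change was -0.80, SE 0.08, adjusted p = 3.9e-06. Ndufv1, which binds NADH and the flavin, went from 208, 204 and 237 CPM in the wild type to 126, 144 and 122 CPM (log2 fold change -0.73, SE 0.09, adjusted p = 2.1e-05). Ndufs1, the largest subunit of complex I, had 166, 158 and 156 CPM against 239, 234 and 235 CPM (log2 fold change -0.56, SE 0.07, adjusted p = 2.0e-05). Ndufs3, Ndufs7 and Ndufs8 are core subunits of the part that leads electrons to ubiquinone. Ndufs3 (38.3 ± 4.07 against 66.2 ± 5.52 CPM, mean ± SD, n = 3, knock-out first) fell by 0.79 on the log2 scale. Ndufs7 (52.9 ± 6.72 against 88.9 ± 7.57 CPM) fell by 0.75 and Ndufs8 by 0.66. The adjusted p of the 3 were 3.9e-05, 6.8e-05 and 5.1e-04. The median log2 fold change over the 3 at the tip was -0.73.

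The 29 accessory subunits of complex I, which surround the core, spread more widely, from -1.46 to 0.10. Of these, 23 were lower and 6 passed in neither direction, with a median of -0.54 against -0.73 for the core. Ndufa5 (ENSMUSG00000023089, chr6:24518666-24528013 on GRCm38), an accessory subunit of the matrix arm, had the largest fall of the complex: 18.8, 29.3 and 22.1 CPM in the knock-out libraries against 61.7, 57.7 and 72.6 CPM, a log2 fold change of -1.46, SE 0.15, adjusted p = 4.2e-06. Its highest knock-out value, in replicate 2, was less than the lowest wild-type value. Relative to Ndufa8, another accessory subunit, Ndufa5 stood at 22.2 ± 2.44% (SD, n = 3) in the knock-out against 47.6 ± 4.38% in the wild type. Ndufb5 and Ndufb6, of the membrane arm, also changed: Ndufb5 had 72.6, 94.2 and 70.1 CPM against 145, 155 and 169 CPM (log2 fold change -0.98, SE 0.11, adjusted p = 1.2e-05), and Ndufb6 had 60.7, 68.8 and 61.8 CPM against 103, 106 and 114 CPM (log2 fold change -0.75, SE 0.08, adjusted p = 1.0e-05). Ndufb5 shares 616 of its 4995 exon bases with Mrpl47 on the opposite strand, and Ndufb6 257 of 659 with Smim27. By symbol series, 9 of 10 Ndufb genes were lower with a median of -0.66 and 9 of 13 Ndufa genes with a median of -0.39.

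Among the 6 accessory subunits that did not pass were some of the more abundant ones. Ndufa13, also known as GRIM-19, had 98.0, 131 and 111 CPM in the knock-out and 103, 105 and 116 CPM in the wild type (log2 fold change 0.07, SE 0.10, adjusted p = 0.62), so that the groups overlapped. As a share of Ndufa10 it was 88.9 ± 4.57% in the knock-out against 46.5 ± 1.65% in the wild type, with no overlap. Ndufa7 (81.4, 86.2 and 81.9 against 72.1, 71.7 and 88.0 CPM, log2 fold change 0.10, SE 0.09, adjusted p = 0.37) overlapped too. Ndufa2 (-0.25, adjusted p = 0.06) and Ndufa11 (-0.22, adjusted p = 0.061) missed the threshold narrowly. Both passed with upper-quartile scaling (adjusted p = 0.031 and 0.028) and when knock-out replicate 2 was left out, with log2 fold changes of -0.38 and -0.31 (adjusted p = 0.0011 and 0.0042). Ndufb4 (-0.42, SE 0.22) and Ndufs5 (-0.17, SE 0.20) had under 11 CPM in every library and sequence shared with other loci, described further on. Ratios between genes, here and below, were picked with the values known and are descriptions; in an exact two-sided permutation test with 3 against 3 libraries no ratio can go below p = 0.1.

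Assembly factors of complex I were lower in 6 of 8 cases, beside 27% of all genes tested. In all 8 the knock-out libraries lay below the wild-type libraries, which held for 30.4% of all genes tested. Ndufaf4, which acts with Ndufaf3 early in assembly, had 63.6, 62.3 and 58.3 CPM against 116, 104 and 107 CPM, and a log2 fold change of -0.83, SE 0.08, adjusted p = 3.1e-06. Ndufaf6 (ENSMUSG00000050323, chr4:11051045-11076205) fell from 17.6, 18.3 and 19.0 CPM in the wild type to 4.64, 7.78 and 5.29 CPM, by 3.14-fold (log2 fold change -1.65, SE 0.19, adjusted p = 8.2e-06). Ndufaf5, an enzyme that modifies the core subunit Ndufs7, had 11.6, 12.2 and 12.7 CPM against 23.2, 26.5 and 30.5 CPM (log2 fold change -1.14, SE 0.14, adjusted p = 1.7e-05). None of these low transcripts overlapped between the genotypes. Ndufaf2, a paralogue of the subunit Ndufa12, was lower by 0.71 on the log2 scale (adjusted p = 3.7e-04), Ndufaf3 by 0.72 and Ndufaf8, the partner of Ndufaf5, by 0.66. Ndufaf2 shares 1955 of its 2978 exon bases with B230220B15Rik, a non-coding gene on the opposite strand that is not among the genes counted. Ndufaf1, of the complex that assembles the membrane arm, had 21.5, 25.6 and 18.8 CPM against 26.8, 28.6 and 26.4 CPM and did not pass (log2 fold change -0.31, SE 0.13, adjusted p = 0.052). It lay at the threshold and passed under 9 alternatives (adjusted p = 0.0023 to 0.049), among them DESeq2, limma voom and other scalings, with its largest change, -0.46, without knock-out replicate 2. Ndufaf7, a methyltransferase, was at -0.17 (adjusted p = 0.16).

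Complex II, succinate dehydrogenase, which also works in the citric acid cycle, was lower in all of its 4 subunits. Sdhd (ENSMUSG00000000171, chr9:50596357-50603812), a membrane anchor that helps to form the ubiquinone site and whose promoter is printed above, had 187, 217 and 179 CPM in the knock-out and 426, 389.7 and 452 CPM in the wild type. The groups were 2.17-fold apart, and this gene had the smallest adjusted p of all members (log2 fold change -1.12, SE 0.09, adjusted p = 4.8e-07). The other anchor, Sdhc, had 123, 146 and 123 CPM against 229.8, 227 and 240.3 CPM (log2 fold change -0.83, SE 0.08, adjusted p = 4.2e-06). Sdha, the flavoprotein that oxidises succinate, had 419, 424 and 396 CPM against 663, 623 and 675 CPM (log2 fold change -0.66, SE 0.07, adjusted p = 5.8e-06). Sdhb, the iron-sulphur subunit, had 109, 129 and 104 CPM against 167, 169 and 179.8 CPM (log2 fold change -0.60, SE 0.09, adjusted p = 1.3e-04). In all 4 genes the knock-out libraries lay below the wild-type libraries, which held for 30.4% of all genes tested. The membrane anchors had the larger fitted falls. The level of Sdhd as a share of Sdhb was 171 ± 2.27% (SD, n = 3) in the knock-out against 245 ± 12.7% in the wild type.

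**Figure D2:**
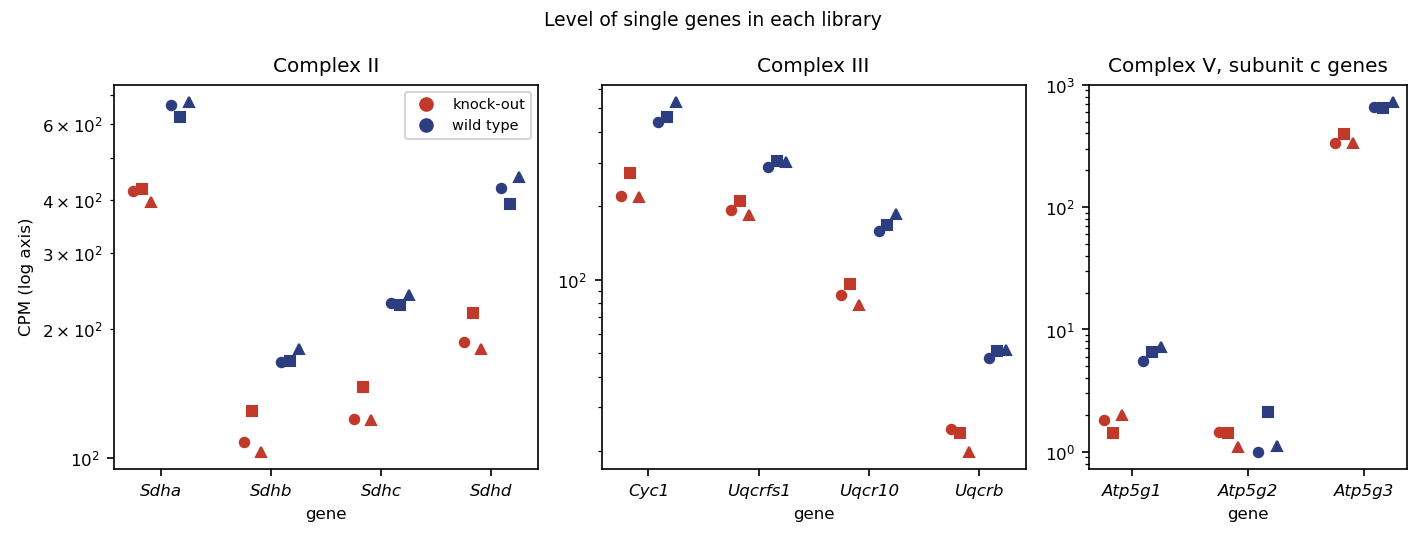
CPM (log axis) of single genes in each library, for complex II, for 4 genes of complex III and for the genes of subunit c of ATP synthase; red marks knock-out and blue wild type, and circles, squares and triangles are replicates 1, 2 and 3. The groups are apart for each gene except Atp5g2, which lies between 1.00 and 2.13 CPM in both.

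In complex III, all 9 subunits were lower in the knock-out, beside 27% of all genes tested. In each of them all knock-out libraries lay below all wild-type libraries, which held for 30.4% of all genes tested. Cyc1, cytochrome c1, had 218, 273 and 216 CPM against 441, 461 and 531 CPM (log2 fold change -1.02, SE 0.10, adjusted p = 4.2e-06), and Uqcrfs1, the Rieske iron-sulphur protein, 193, 209 and 183 CPM against 289, 306 and 301 CPM (log2 fold change -0.62, SE 0.07, adjusted p = 1.9e-05). These are the nuclear subunits that carry electrons; both fell. The core proteins Uqcrc1 and Uqcrc2, which carry none, had 315, 346 and 302 CPM against 484, 518 and 546 CPM (log2 fold change -0.68, SE 0.08, adjusted p = 1.2e-05) for Uqcrc1, and Uqcrc2 had a log2 fold change of -0.63. Among the small subunits, Uqcrb (ENSMUSG00000021520, chr13:66900617-66905378), which lies near the ubiquinone site, had 24.5, 23.7 and 19.8 CPM against 47.8, 51.3 and 51.3 CPM (log2 fold change -1.15, SE 0.11, adjusted p = 1.9e-06). Of its coding sequence 73.2% is shared with other loci. Uqcr10, a small subunit that shares 0% of its coding windows, had 86.4, 96.3 and 78.4 CPM against 158, 167 and 184 CPM (log2 fold change -0.97, SE 0.09, adjusted p = 2.7e-06). The remaining members, Uqcrh, Uqcrq and Uqcr11, were lower by 0.74, 0.70 and 0.54 on the log2 scale (adjusted p = 4.5e-05, 1.3e-04 and 5.7e-04).

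The nuclear subunits of complex IV, cytochrome c oxidase, surround a core that is encoded in mitochondrial DNA, and several exist as tissue-specific isoforms. Of the 20 members 14 could be tested; the other 6 were at 0 in all libraries. Cox7a2 had 123, 139 and 122 CPM in the knock-out and 188, 209 and 226 CPM in the wild type (log2 fold change -0.70, SE 0.09, adjusted p = 2.8e-05), and Cox7b 108, 132 and 119 CPM against 185, 188 and 218 CPM (log2 fold change -0.72, SE 0.09, adjusted p = 3.9e-05). Cox7a2l, classed here as a supercomplex factor related to Cox7a, had 63.3, 71.4 and 60.3 CPM against 96.5, 96.9 and 100.1 CPM (log2 fold change -0.59, SE 0.09, adjusted p = 8.8e-05), and shares 50.5% of its coding windows with another locus. Cox5a, which contacts the catalytic core, had 187, 225 and 182 CPM against 278, 288 and 328 CPM (log2 fold change -0.59, SE 0.10, adjusted p = 2.3e-04). In each of these the groups were apart, at about the same distance. Smaller falls were those of Cox4i1 (401 ± 42.4 against 559.6 ± 59.1 CPM, -0.48, adjusted p = 0.001) and Ndufa4, once counted to complex I and now to complex IV (232 ± 26.8 against 315 ± 28.0 CPM, -0.44, adjusted p = 0.0017).

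The common isoforms carried nearly all counts. Cox6b1 (254 ± 43.9 against 372 ± 32.8 CPM) fell by 0.55 and Cox8a (87.3, 116 and 94.9 CPM against 124, 145 and 184 CPM) by 0.60 on the log2 scale (adjusted p = 0.0012 and 0.0029). Cox6b2, the testis isoform, had 39 counts over the knock-out libraries and 84 over the wild-type libraries, and was lower (log2 fold change -1.30, SE 0.52, adjusted p = 0.042), a call that was lost with DESeq2, limma voom or the legacy edgeR fit (adjusted p = 0.060, 0.058 and 0.060) and without knock-out replicate 1 or 3 or wild-type replicate 2 or 3 (0.071 to 0.21). Cox7a1, the heart and muscle counterpart of Cox7a2, had 28 against 58 counts, overlapped and did not pass (log2 fold change -1.24, SE 0.83, adjusted p = 0.2). The lung isoform Cox4i2, the muscle isoforms Cox6a2 and Cox8b, the testis isoforms Cox7b2 and Cox8c, and Ndufa4l2, a paralogue of Ndufa4 known to be induced in hypoxia, were listed at 0 in all libraries. Some mitochondrially encoded genes that all cells use are listed at 0 as well (described further on), so no upper level is read from these values. Cox6a1, the common isoform, was the only widely expressed complex IV subunit that did not pass, with 206, 268 and 215 CPM against 244, 252 and 289 CPM (log2 fold change -0.19, SE 0.10, adjusted p = 0.15). The values overlapped through knock-out replicate 2, and without that library the log2 fold change was -0.34 (adjusted p = 0.000725). As a share of Cox7a2, Cox6a1 was 179 ± 12.7% in the knock-out against 126 ± 4.97% in the wild type.

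In complex V, the 5 subunits of the catalytic F1 head were all lower, with a median log2 fold change of -0.70. Atp5b and Atp5a1, which form the catalytic ring, had the highest CPM of all members: Atp5b 1845, 2052 and 1759 CPM against 3003, 3017 and 3304 CPM (log2 fold change -0.72, SE 0.08, adjusted p = 1.3e-05) and Atp5a1 1263, 1364 and 1217 CPM against 2034, 2032 and 2193 CPM (log2 fold change -0.70, SE 0.08, adjusted p = 7.4e-06). Between them they held 26.4% to 28.2% of the summed CPM of all members in each library. The central stalk subunits Atp5c1, Atp5d and Atp5e were lower by 0.73, 0.43 and 0.46. Of the 11 subunits of the membrane part Fo and the peripheral stalk, 8 were lower (median -0.58). Atp5mpl (ENSMUSG00000021290, chr12:111961375-111966977), a small membrane proteolipid, had 49.8, 67.9 and 57.8 CPM against 143, 139 and 154 CPM, a 2.49-fold lower level (log2 fold change -1.32, SE 0.11, adjusted p = 5.3e-07). Atp5o, which joins the stalk to the head, had 109.6, 145 and 114 CPM against 240.1, 243 and 278 CPM (log2 fold change -1.05, SE 0.11, adjusted p = 4.7e-06); a second annotated gene of the same symbol shares 243 of its 1972 exon bases and was not analysed here.

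Subunit c, the rotor ring of ATP synthase, is made from 3 genes whose mature proteins are identical. Atp5g3 (ENSMUSG00000018770, chr2:73908447-73911326) had 332, 393 and 337 CPM in the knock-out and 664, 646 and 724 CPM in the wild type (log2 fold change -0.94, SE 0.08, adjusted p = 1.4e-06). Atp5g1 had the largest fall of all members, from 5.52, 6.49 and 7.24 CPM to 1.83, 1.42 and 2.00 CPM (3.61-fold, log2 fold change -1.85, SE 0.26, adjusted p = 3.8e-05), and stood at 0.502 ± 0.124% of Atp5g3 in the knock-out against 0.945 ± 0.0986% in the wild type. Atp5g2 had 1.45, 1.42 and 1.10 CPM against 1.00, 2.13 and 1.11 CPM and overlapped (log2 fold change -0.03, SE 0.38, adjusted p = 0.95); its sign turned with limma voom. Almost all counts of subunit c thus came from Atp5g3 in both genotypes, but Atp5g1 and Atp5g2 share 99.7% and 99.2% of their coding windows with other loci. The others that did not pass were Atp5l (-0.21, SE 0.22), Atp5j2, and Atp5s, known as coupling factor B, which is not a structural subunit. Atp5j2, a membrane subunit, had 52.1, 71.5 and 48.4 CPM against 47.3, 50.8 and 63.0 CPM (log2 fold change 0.09, SE 0.15, adjusted p = 0.64); its share of Atp5o was 46.4 ± 3.52% in the knock-out against 21.1 ± 1.49% in the wild type. Atp5s had 10.1, 8.08 and 9.49 CPM against 9.24, 8.04 and 8.61 CPM (log2 fold change 0.10, SE 0.16, adjusted p = 0.64). The signs of Atp5j2 and Ndufa13 turned without knock-out replicate 2, to log2 fold changes of -0.12 and -0.075, which did not pass either.

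Summed over its genes, each complex was lower in the knock-out with no overlap between the groups. The sum over all members was 11128, 12962 and 10991 CPM in knock-out replicates 1, 2 and 3 and 17869, 17995 and 19974 CPM in the wild type, 1.59-fold apart. The wild-type sum was 1.52 times that of the knock-out for complex I, 1.74 for complex II, 1.68 for complex III, 1.43 for complex IV, 1.64 for complex V and 1.63 for the assembly factors. Complex IV took a larger share of the members' CPM in the knock-out (16.0 ± 0.519%, SD, n = 3) than in the wild type (14.4 ± 0.484%), and so did complex I (21.2 ± 0.319% against 20.3 ± 0.0654%). Smaller shares were those of complex II (7.30 ± 0.231% against 7.96 ± 0.307%), complex III (12.6 ± 0.159% against 13.3 ± 0.177%) and complex V (41.4 ± 0.372% against 42.5 ± 0.311%). For none of these 5 did the genotypes overlap; the share of the assembly factors did overlap. The shifts in share are small beside the common fall, and with 3 against 3 libraries an exact permutation test cannot go below p = 0.1; no test of the shares was run.

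**Figure D3:**
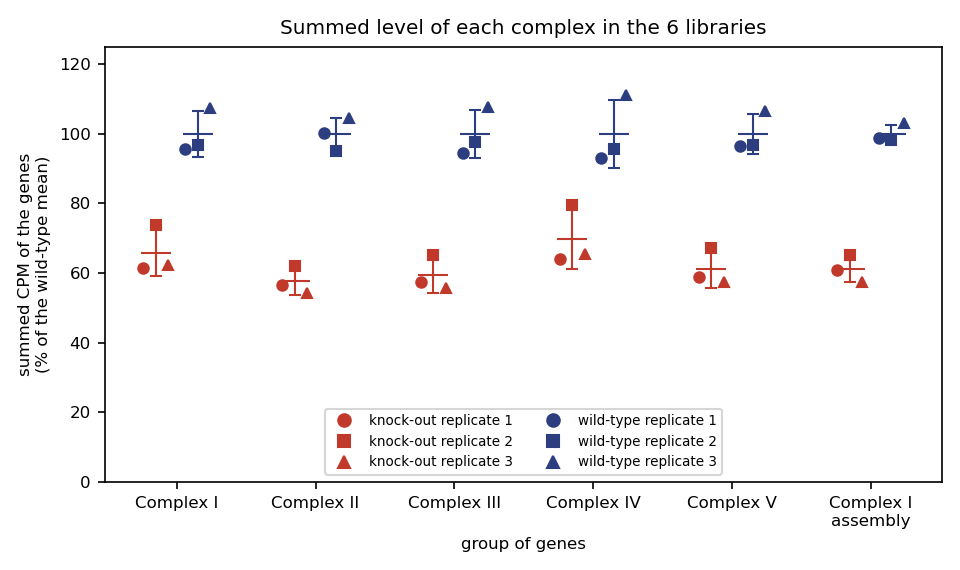
Summed CPM of each group of genes in the 6 libraries, as a percent of the wild-type mean, with the mean and SD of each genotype as bars. All knock-out points lie below all wild-type points, and knock-out replicate 2 and wild-type replicate 3 are the highest of their genotype in each of the 6 groups.

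Within each genotype, 1 library was the highest for most members. Knock-out replicate 2 was the highest knock-out library for 77 of the 88 tested genes, and wild-type replicate 3 was the highest wild-type library for 75 of 88. Knock-out replicate 2 also stood apart over all genes, with a chi-square per degree of freedom of 28.0 and 28.2 against knock-out replicates 1 and 3, beside 4.72 between those. Without it, 78 respiratory chain genes were lower and the median log2 fold change was -0.75, in place of 74 and -0.66; the added calls were Ndufaf1, Ndufa2, Ndufa11 and Cox6a1.

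Per unit of exon length, the wild-type levels of the complexes ranged over an order of magnitude. The median over genes of the level per length (TPM, mean ± SD over 3 libraries) was 555 ± 36.4 for complex III, 487 ± 46.0 for complex IV, 377 ± 19.1 for complex II, 274 ± 19.9 for complex V, 190 ± 17.1 for complex I and 48.9 ± 5.12 for the assembly factors. With the longest transcript as length the medians were 552, 456, 462, 452, 218 and 46.9 in the same sequence, so the order of complexes II, IV and V depends on the length used, and complexes III and IV lie within the sum of their SDs on the union length but not on the longest transcript (552 ± 6.06 against 456 ± 39.9). Complex I and the assembly factors were the lowest of the 6 groups with either length. On this scale the median log2 ratio of knock-out to wild type was -0.50 over the 88 members and 0.16 over 13425 tested genes, so the distance between them was as before. With the union of exons as length, the highest genes were Atp5b at 2351 ± 141 TPM, Atp5a1 at 2132 ± 109 TPM and Cox6b1 at 1683 ± 159 TPM. With the longest transcript Atp5b was again the highest, at 4105 TPM, but Atp5g3 (1991 TPM) came before Atp5a1 (1974 TPM) and Cox4i1 (1851 TPM) before Cox6b1 (1523 TPM).

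Many respiratory chain genes have processed pseudogenes, copies of their message elsewhere in the genome, and members that share 50% or more of their coding windows with other genes had a lower median level than the rest. The share of 50-base windows of the coding sequence that also occur in a transcript of another gene was 0 for 53 of the 88 tested members, and 48 of those were lower in the knock-out. It was under 50% for 76 members, of which 66 were lower and 10 passed in neither direction, with a median wild-type level of 267 TPM. For the 12 members at 50% or more, 8 were lower and 4 were not, and the median level was 25.4 TPM. These were Atp5l (100%), Ndufb4 (100%), Ndufab1 (99.8%), Atp5g1 (99.7%), Atp5g2 (99.2%), Cox7c (82.2%), Uqcrb (73.2%), Ndufs5 (72.1%), Ndufa12 (69.3%), Atp5h (66.6%), Cox6c (52.8%) and Cox7a2l (50.5%). Atp5l shares its windows with 13 genes, 11 of them pseudogenes. The genes that share sequence held few counts themselves, from 1 (those of Ndufb4) to 265 (those of Atp5g2) over all libraries. How reads that fit several places were counted is not given in the sources used here, and its part in these low levels was not tested. The fold changes of the 76 other members had a median of -0.67, close to the -0.66 of all.

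**Figure D4:**
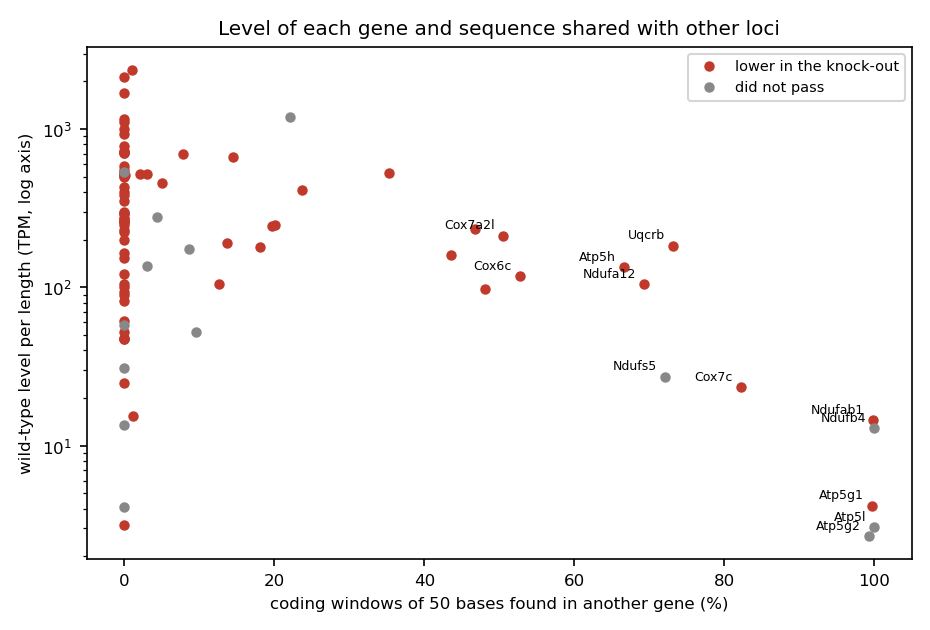
Wild-type level per length (TPM, log axis) of each tested gene against the percent of its 50-base coding windows that occur in another gene; red marks genes lower in the knock-out and grey those that did not pass. The 12 genes at 50% or more have a median of 25.4 TPM and the 76 others 267 TPM.

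Position on the chromosomes was looked at because chromosome 5 as a whole was higher in the knock-out, with a median log2 fold change of 0.40 over its 685 genes of at least 5 CPM against -0.03 over 9371 genes of the other autosomes. The tested members there were Cox6a1, Atp5j2 and Atp5k, an Fo subunit; Atp5k alone was lower (-0.48, adjusted p = 0.0044). Outside chromosomes 5 and X, 70 of 82 members were lower. The X-linked members Ndufb11, Ndufa1 and Cox7b were lower in all 3 cases (-0.42, -0.39 and -0.72). The part of the chromosome 5 shift and of sex in these values was not tested. In all, 29 members share exon bases with a gene on the opposite strand; the library kit keeps the strand, but the strand setting of the counting is not given in the sources used here.

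Assembly factors outside the symbol rule were also lower where they passed. The median log2 fold change of the 45 tested was -0.40. Of these, 26 were lower (57.8%, beside 27% of all genes tested), 0 higher (1, Uqcc2, at an unadjusted p under 0.05) and 19 neither. For complex I these were 6 of 9, led by Foxred1 (41.8 ± 2.37 against 68.0 ± 2.71 CPM, log2 fold change -0.70, SE 0.09, adjusted p = 2.3e-05) and Ecsit (23.9 ± 3.43 against 44.7 ± 3.87 CPM, log2 fold change -0.90, SE 0.12, adjusted p = 4.8e-05). For complex II, Sdhaf1 and Sdhaf3, which protect or insert the iron-sulphur clusters of Sdhb, were lower (-0.74 and -0.81) and Sdhaf2 and Sdhaf4 were not (-0.10 and 0.15). Complex III had 3 of 6, among them Uqcc3 (-0.49) and Bcs1l (-0.43, adjusted p = 0.012), the factor that inserts the Rieske protein. The call of Bcs1l was lost without knock-out replicate 1 (adjusted p = 0.063) or wild-type replicate 3 (0.053). Complex IV had 10 of 21, led by Cox10, which makes an intermediate of haem A, at 27.0, 27.6 and 26.8 CPM against 52.6, 58.9 and 57.0 CPM (log2 fold change -1.05, SE 0.09, adjusted p = 1.1e-06), and Taco1, an activator of mitochondrial translation (-0.75). Complex V had 5 of 5, among them Fmc1 (-1.18) and Tmem242 (-0.64). As shares, 66.7% and 100% were lower for complexes I and V. For complexes II, III and IV the shares were 50%, 50% and 47.6%, nearer to the 27% of all genes. Including Ndufaf1 to Ndufaf8, 32 of 53 assembly factors were lower (60.4%, median -0.43), against 68 of 80 subunits (85.0%, median -0.62). Assembly factors were expressed at lower levels, with a median of 27.3 CPM in the wild type against 123 CPM for the subunits. At 50 CPM or less, 25 of 38 assembly factors (65.8%) and 8 of 14 subunits (57.1%) were lower. The classes were not matched in level there, as these subunits had the lower median wild-type level. Above 50 CPM, 60 of 66 subunits (90.9%) were lower, beside 36.2% of all tested genes with at least 50 CPM in the wild type. Of the assembly factors above 50 CPM, fewer were lower than passed in neither direction. Ndufaf4, Foxred1, Aifm1, Cox10, Tmem242, Atpaf2 and Tmem70 were lower. Acad9, Sdhaf2, Uqcc1, Uqcc2, Coa3, Coa5, Cox14 and Cox15 passed in neither direction. The part of level in the difference between the classes was not tested.

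Of the inhibitor of the synthase and the electron carrier cytochrome c, only the first passed the test, although the fitted fall of the second was larger. Atpif1, the ATPase inhibitor, had 145, 173 and 154 CPM against 182, 174 and 211 CPM (log2 fold change -0.26, SE 0.09, adjusted p = 0.031). This call was lost with a replicate block (adjusted p = 0.056) and without knock-out replicate 1 or 3 or wild-type replicate 1 or 3 (0.054 to 0.16). Cycs, cytochrome c, had 3.72, 3.37 and 2.39 CPM against 5.02, 3.68 and 5.57 CPM and did not pass (log2 fold change -0.61, SE 0.25, adjusted p = 0.055). The search for coding sequence shared with other loci did not include Cycs, so its part in this low level was not tested.

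Subunits encoded in mitochondrial DNA were lower too. Of the 13, the 7 with counts were all lower, beside 27% of all genes tested. Their median log2 fold change was -1.37, beside -0.66 for the nuclear members, and the difference was not tested. The others, mt-Co2, mt-Co3, mt-Atp6, mt-Atp8, mt-Nd3 and mt-Nd4l, were listed at 0 in all libraries; since all cells use these genes, a 0 in these tables does not show that a gene was silent. mt-Nd5, a complex I subunit, had 2136, 2859 and 2039 CPM against 5882, 6209 and 4914 CPM (log2 fold change -1.27, SE 0.13, adjusted p = 4.7e-06), and mt-Nd2 2206, 3309.9 and 2152 CPM against 6858, 6910.2 and 5870.5 CPM (log2 fold change -1.36, SE 0.15, adjusted p = 8.4e-06). The nuclear members took 1.17 ± 0.109% of all counts in the knock-out against 1.86 ± 0.125% in the wild type (SD, n = 3), and the mitochondrially encoded subunits 2.51 ± 0.710% and 6.70 ± 0.698%. Within the genotypes they did not run in parallel: knock-out replicate 2 was highest for both, but wild-type replicate 3 had the highest nuclear share (2.01%) and the lowest mitochondrial share (5.90%). Leaving the mitochondrial genes out of the scaling gave 77 lower nuclear members in place of 74.

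**Figure D5:**
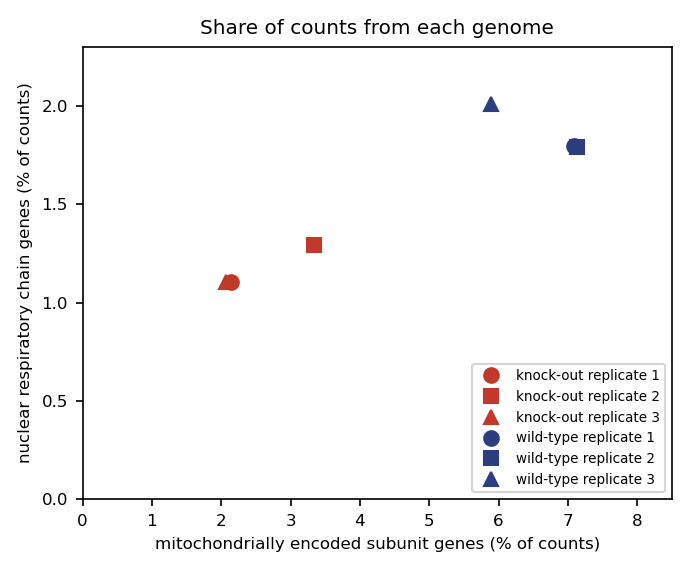
Percent of all counts from nuclear respiratory chain genes against that from mitochondrially encoded subunits, in each library. Knock-out libraries lie at 1.10 to 1.29% and 2.07 to 3.33%, and wild-type libraries at 1.79 to 2.01% and 5.90 to 7.12%.

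Among regulators known to act on respiratory genes, 4 of 9 tested were lower (44.4%, beside 27% of all genes tested) and 0 higher, with a median log2 fold change of -0.16. Ppargc1a, which encodes the coactivator PGC-1alpha, had 3.57, 2.43 and 4.23 CPM against 30.3, 29.4 and 27.3 CPM, 8.41-fold lower (log2 fold change -3.07, SE 0.19, adjusted p = 1.7e-08). Ppargc1b, its relative PGC-1beta, had 3.47, 2.17 and 3.65 CPM against 17.5, 19.4 and 14.9 CPM (log2 fold change -2.45, SE 0.22, adjusted p = 6.0e-07). Both were far apart between the genotypes, at low levels. Nrf1, the transcription factor, fell by 0.37 and Gabpb2, a subunit of GABP, by 0.48 on the log2 scale (adjusted p = 0.0021 and 0.0097). Gabpa (-0.16), Gabpb1 (-0.02), Esrra (0.06), Pprc1 (-0.12) and Yy1 (0.19) passed in neither direction, and Esrrg was at 0. No test linked these levels to those of the respiratory chain genes.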

How the data were processed

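RNA was measured in 6 libraries, 3 per genotype. Per the labels' protocols, RNA was extracted with a column kit and made into stranded, polyA-selected libraries, and STAR and GRCm38 are the aligner and build named in the submitters' processing notes. The deposited tables hold raw whole counts for each Ensembl identifier. Not given in the sources used here are the counter, whether it used strand, how it treated reads that fit several places, and the annotation release. Symbols, coordinates and lengths came from GENCODE M21, which named 49326 of 49585 identifiers; 26250 were at 0 in every library. Of 95 annotated genes that fit the symbol rule, 94 were in the tables.

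Counts were fitted with edgeR 4.0.16 in R 4.3.3 (quasi-likelihood test, TMM scaling, a design with genotype alone) after filterByExpr with a minimum count of 10 and a minimum total of 15. Adjusted p-values are Benjamini-Hochberg values over the 13759 genes left, and 0.05 was the threshold. The fit was tested on simulated data first. Levels per length (TPM) divide counts by the union of exons. The 50-base windows of coding sequence were matched exactly to transcripts of genes at other loci. Promoters came from RefSeq's table.

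Libraries of a genotype had a chi-square per degree of freedom of at least 4.72 against each other, so none were counted as copies. Complexes and classes were assigned from textbook knowledge. Genes are named where they had the 4 smallest adjusted p or the 2 largest changes of a group, belong to complex II, the core of complex I or an isoform pair, passed in neither direction or were not tested; further members are named for their role or position, and from other lists the 2 smallest adjusted p are named, with some more picked after their values were seen. 1 member and 1 marker are not reported here by name. The members and lists were chosen with earlier results of these data known. Alternatives were other scalings, filters and tests (DESeq2 1.42.0, limma 3.58.1 voom), a term for the replicate number, a threshold of 0.01, protein-coding genes alone, another gene length and leaving out each library; change per length was added after the data were seen.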

Additional observations from a re-analysis of the deposited data

How the results depend on the processing

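The number of members lower in the knock-out was 68 to 78 and the number higher 0 under all 18 alternatives, and for each complex the count stayed within 1.5 times its value. The median log2 fold change of the members ran from -0.75 to -0.59 under these, and was -0.50 for levels per length, an alternative chosen after seeing the data, where the median of all tested genes was 0.16. The largest shift of the median of all genes by a scaling was to -0.05 (upper quartile). Deviations of same-numbered libraries correlated at 0.11, -0.11 and -0.19. The largest correlation, 0.27, was between knock-out replicate 2 and wild-type replicate 3. Whether the replicate numbers pair the libraries is not said in the labels and is not settled by so few libraries. With a replicate block 7432 genes were called in place of 7896, and 74 members were lower as before; the call of Atpif1 was lost with it, so that the list of cytochrome c and ATPase inhibitor had 0 lower genes in place of 1.

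That list had 2 lower genes under upper-quartile scaling, scaling without the mitochondrial genes, no filter, a filter of 1 CPM and protein-coding genes alone, 0 at an adjusted p of 0.01, and 0 to 2 when single libraries were left out. Of the assembly factors outside the rule, complex III had 1 higher gene in place of 0 with no filter, 1 lower gene in place of 3 at 0.01, and 0 to 1 higher and 1 to 4 lower genes with a library left out; complex IV had 6 lower genes in place of 10 at 0.01; complex I had 0 to 1 higher genes with a library left out, and so had the regulators.

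The call of Cox6b2 was lost with DESeq2, limma voom and the legacy edgeR fit, and Ndufaf1, Ndufa2, Ndufa11 and Cox6a1 gained one under some scalings, filters or tests. Of 65 named genes 54 kept their direction and their side of the threshold throughout; of 1168 values 17 lost and 20 gained a call. Signs turned for Atp5g2 with limma voom (0.025) and with a library left out (-0.24 to 0.32), and without knock-out replicate 2 for Ndufa13 (-0.075, up to 0.16 without another library) and Atp5j2 (-0.12, up to 0.22); none of these passed. Causes were not tested. Depth limits the genes with few counts: Cox6b2, Cox7a1 and Atp5g2 had standard errors of 0.52, 0.83 and 0.38.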
